A study of Mus musculus with 7 samples.

Results

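B cell receptor signalling genes were examined in 7 lymphoma cell lines by RNA-seq. The members are 37 genes taken from a list of symbols for this pathway, each found by its Entrez identifier among the 27179 genes of every count table. They were chosen with earlier results of these data known. The lines were grown from end-stage lymphomas of male C57BL/6 mice, and every mouse carried the Eµ-Myc transgene, which drives Myc from an immunoglobulin heavy chain enhancer and gives B lineage tumours. The wild-type group held 3 lines with intact Smchd1 and the Smchd1 null group held 4 lines, which the labels call gene trap homozygotes and the methods of the study write as the MD1 allele of Smchd1. Smchd1 is needed for the silencing of the inactive X chromosome and some imprinted clusters, and the experiment asked which genes it regulates in these cells. No age was given, nor whether a line is 1 clone, and each library was taken as 1 tumour line, as labelled. The p-values measure the spread between libraries, which is a spread between lines only if the libraries come from different lines. For wild-type replicates 2 and 3 this was not shown, as described below. Wild-type replicate 1 was the only library of batch 1 and was read single-end, whereas the other 6 formed batch 2 and were read paired-end.

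The B cell receptor is a membrane immunoglobulin paired with CD79A and CD79B, whose cytoplasmic tails carry the activation motifs. Antigen binding leads the kinase LYN to phosphorylate these tails, SYK docks there, and BTK, the adaptor BLNK and phospholipase C gamma 2 then pass the signal to calcium, protein kinase C beta and, through BCL10 and MALT1, to NF-kappaB. Inhibitory receptors such as CD22 and Fc gamma RIIB recruit the phosphatases SHP-1 (Ptpn6) and SHIP-1 (Inpp5d), which oppose the signal. A tonic form of this signal supports the survival of many B cell lymphomas.

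Sequences before the transcription start are shown for 4 members on which the results below turn, namely Cd79a and Plcg2, which rose in the Smchd1 null group, Sh3bp2, the only member that fell, and Prkcb, which differed most between lines. Each window runs from 250 bases before to 50 bases after the start and comes from RefSeq, build GRCm38.p6, plus strand. Capitals mark matches, on either strand, to the octamer ATGCAAAT, the E-boxes CAGCTG and CACGTG, and the ETS core AGGAAG. These 4 motifs were picked after the sequences had been read, and none of the matches overlap.
Cd79a, chr7:24897247-24897546: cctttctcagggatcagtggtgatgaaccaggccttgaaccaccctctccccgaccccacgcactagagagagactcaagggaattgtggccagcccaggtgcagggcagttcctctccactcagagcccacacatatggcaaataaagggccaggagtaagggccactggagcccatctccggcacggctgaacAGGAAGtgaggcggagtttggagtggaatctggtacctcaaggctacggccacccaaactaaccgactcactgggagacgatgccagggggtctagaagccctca
Plcg2, chr8:117498025-117498324: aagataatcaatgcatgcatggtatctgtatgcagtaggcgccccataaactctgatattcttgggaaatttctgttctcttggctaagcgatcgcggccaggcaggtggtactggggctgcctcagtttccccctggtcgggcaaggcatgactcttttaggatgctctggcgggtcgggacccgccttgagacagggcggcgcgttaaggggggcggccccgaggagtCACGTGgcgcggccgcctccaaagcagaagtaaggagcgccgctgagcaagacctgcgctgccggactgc
Sh3bp2, the more upstream of 2 starts in the table and inside the gene span given below, chr5:34543115-34543414: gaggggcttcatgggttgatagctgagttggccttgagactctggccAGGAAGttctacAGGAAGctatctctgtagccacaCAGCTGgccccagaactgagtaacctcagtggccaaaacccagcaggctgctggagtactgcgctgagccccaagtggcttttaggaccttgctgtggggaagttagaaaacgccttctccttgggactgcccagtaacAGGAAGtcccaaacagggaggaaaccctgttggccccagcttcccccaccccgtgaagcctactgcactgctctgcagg
Prkcb, chr7:122288875-122289174: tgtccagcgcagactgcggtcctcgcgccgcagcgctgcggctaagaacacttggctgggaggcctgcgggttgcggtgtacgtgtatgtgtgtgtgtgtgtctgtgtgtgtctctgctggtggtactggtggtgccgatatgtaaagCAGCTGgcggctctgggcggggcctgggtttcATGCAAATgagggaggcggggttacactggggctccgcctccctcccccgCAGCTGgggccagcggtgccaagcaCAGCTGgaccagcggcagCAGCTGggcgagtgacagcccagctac
The Prkcb window held 1 octamer and 4 CAGCTG boxes. The Cd79a window held 1 ETS core and the Sh3bp2 window 3 ETS cores and 1 CAGCTG box, while the Plcg2 window held 1 CACGTG box, the form that Myc binds. Promoter windows were found for 30 of the 37 members, 44 windows in all. The ETS core lay in 25 of these windows (56.8%), against 35.4% of all 32851 windows. The octamer lay in 2 of them, those of Blnk and Prkcb (4.55% against 1.74%). CAGCTG lay in 9 windows (20.5% against 16.3%) and CACGTG in 3 (6.82% against 7.15%). The motifs were picked after the sequences had been read and some members have several windows, so these shares are descriptions with no test. A match describes the letters of a window and not a bound site.

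Total counts ran from 3626853 to 7519549 per library. A count of 3, taken as the smallest level that can be shown, was 0.399 to 0.827 CPM, where CPM is the count scaled to a common library total. Smchd1 itself was at 248.1, 230.3 and 218.7 CPM in the wild-type lines and at 22.7 to 28.7 CPM in the 4 Smchd1 null lines, so no label was contradicted. Over the 500 genes that differed most within each pair of libraries, wild-type replicates 2 and 3 lay 1.27 apart on the log2 scale, while every other pair lay 3.11 to 5.23 apart. The counts of replicates 2 and 3 differed by more than sampling noise (chi-square per degree of freedom 3.96, against 18.1 for Smchd1 null replicates 1 and 2), which does not show whether they are independent. They were kept as separate samples as labelled, and results are also given with them summed. Wild-type replicate 1 and Smchd1 null replicate 4 stood farthest from their groups and received the smallest sample weights, 0.245 and 0.251. The largest weights, 3.79 and 3.07, went to wild-type replicates 2 and 3, against 0.824 to 1.61 for Smchd1 null replicates 1 to 3. The wild-type side of the weighted fit thus rested mainly on this close pair. Cd3e, Cd8a, Ncr1 and Kdr, markers of T, NK and endothelial cells, had 0 counts in all 7 libraries, and the 6 T cell markers together reached at most 0.532 CPM. Other listed markers were present in every library. The endothelial markers Pecam1 and Cdh5 were at 44.1 to 219.0 CPM and 1.29 to 3.58 CPM, and the NK marker Klrb1c at 0.321 to 2.53 CPM. The 7 myeloid markers summed to 0.444 to 27.8 CPM, highest in Smchd1 null replicate 2, where Itgam was at 23.1 CPM. The summed B lineage markers were lowest in Smchd1 null replicate 4, as described below.

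A test required 0.5 CPM in 3 or more libraries, which 4 members did not reach. Cr2 (complement receptor 2, which lowers the threshold of the receptor) and Fcer2a (CD23) mark mature follicular or marginal zone B cells. Lcp2 encodes SLP-76, the T cell and myeloid counterpart of BLNK, and Vav3 encodes a guanine nucleotide exchange factor. Each of the 4 had at most 2 counts in any library. The other 33 members were tested, and their order was examined per length as RPKM, the CPM divided by the gene length in kilobases, since longer genes collect more reads. Cd24a, a glycoprotein of immature B cells, had the highest level, with a median of 850.6 RPKM over the 7 libraries. Cd79b (252.9 RPKM), Cd79a (173.9 RPKM) and Cd72 (136.4 RPKM) followed. The library ranges of Cd79b and Cd79a overlapped, as did those of Cd79a and Cd72, while that of Cd24a lay wholly above that of Cd79b. Blnk, Plcg2, Cd22, Ptpn6, Btk, Fcgr2b, Syk and Prkcd had medians of 50.6 to 97.4 RPKM. At the low end stood Blk (0.957 RPKM), Ms4a1 (0.216 RPKM) and Rasgrp3 (0.119 RPKM). Cd24a has near-identical copies elsewhere in the genome and its reads may have been shared with them.

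**Figure D1:**
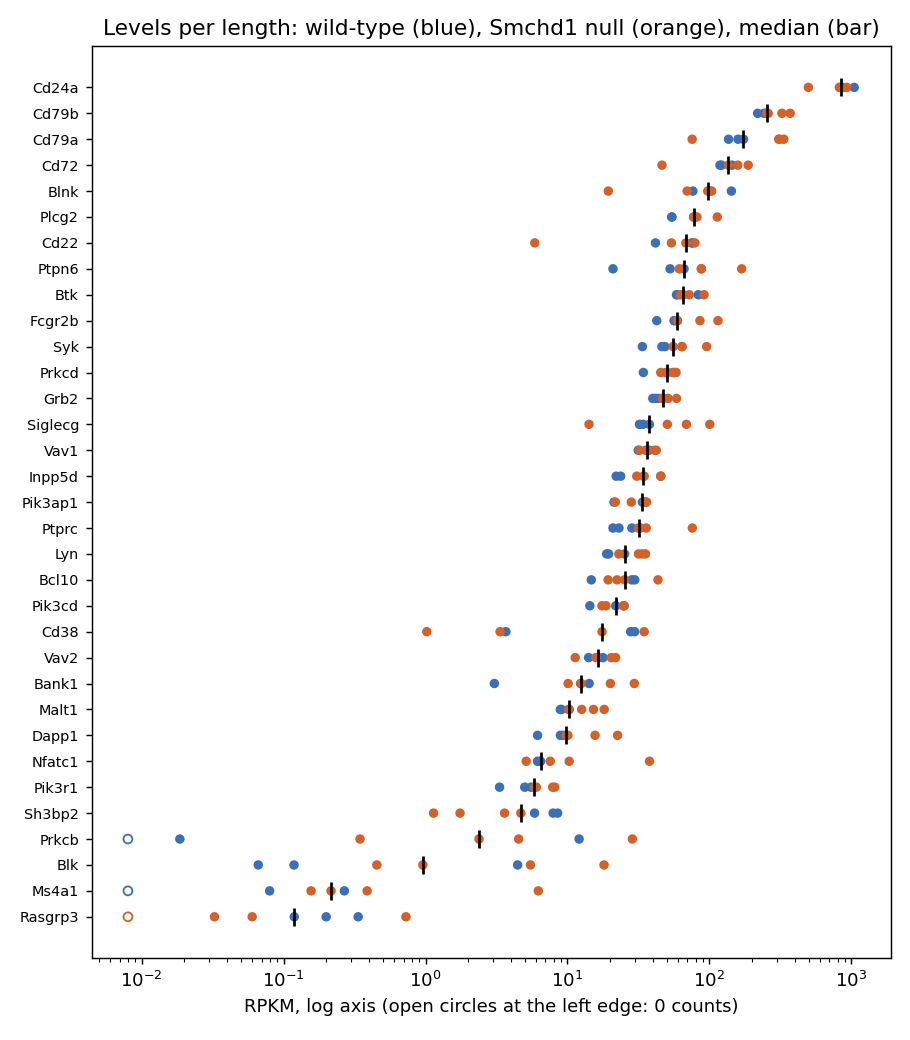
RPKM on a log axis for each of the 33 members tested, 1 point per library, wild-type in blue and Smchd1 null in orange, with a bar at the median of 7 libraries and open circles at the left edge for libraries with 0 counts. Most members span less than 10-fold between libraries, whereas Cd22, Cd38 and Blk span more, and Prkcb, Ms4a1 and Rasgrp3 each have a library with 0 counts.

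In the comparison of Smchd1 null with wild-type lines, 5 members rose and 1 fell. Cd79a, Syk, Lyn, Plcg2 and Inpp5d were higher by 0.52 to 0.95 on the log2 scale, and Sh3bp2 was lower by 1.45. These calls are from voom with sample weights, fitted over 12303 genes, at a false discovery rate (FDR) under 0.05. Since the members were chosen with earlier results of these data known, their shares here and below are descriptions beside all genes and not a test. The 5 increases are 15.2% of the 33 members tested, against 5.02% of all genes called higher. The single decrease is 3.03% of the members, against 6.96% of all genes called lower. The median log2 fold change was 0.35 over the members and -0.01 over all genes tested. A positive value was found in 23 of the 33 members (69.7%, against 48.8% of all genes). Over the same 7 libraries without sample weights, no member was called. Voom alone called 0 members and 0.0975% of all genes, with an unadjusted p under 0.05 in 8 of 33 members (24.2%) and 11.3% of all genes. The quasi-likelihood test of edgeR also called 0 members and 0.0975% of all genes, with an unadjusted p under 0.05 in 11 members (33.3%) and 11.5% of all genes. DESeq2 called 0 members and 3.21% of all genes, with an unadjusted p under 0.05 in 13 members (39.4%) and 12.8% of all genes. With wild-type replicate 1 and Smchd1 null replicate 4 removed, voom without sample weights called Cd79a (limma FDR 0.0216) and Plcg2 (limma FDR 0.0420), and 4.31% of all genes. With wild-type replicates 2 and 3 summed into 1 sample, or with either of them left out, no member was called. Each of these fits called only 1 gene in all, so the loss of calls was not particular to the members. The smallest FDR of the 6 called members was 0.768 when summed.

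**Figure D2:**
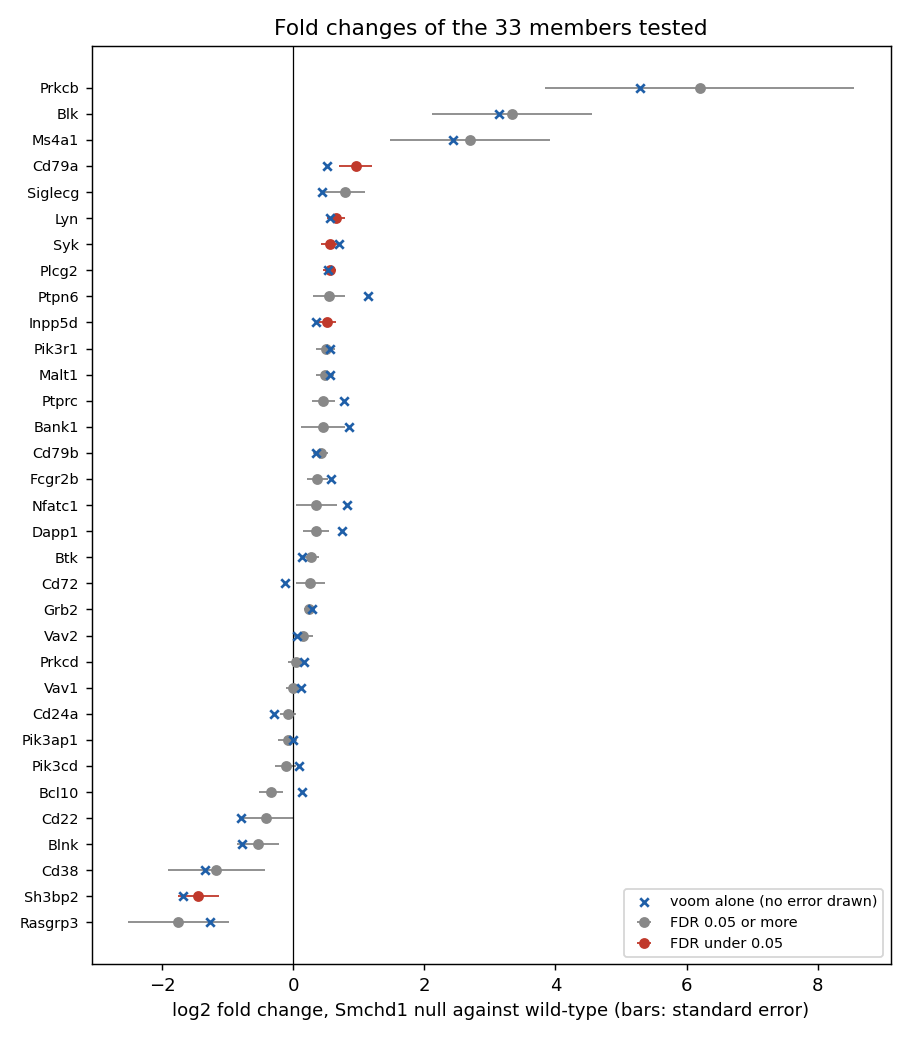
Log2 fold change of Smchd1 null against wild-type lines for the 33 members tested, with bars of 1 standard error from voom with sample weights and crosses for voom alone. The 6 members with an FDR under 0.05 are drawn in red, and Prkcb, Blk and Ms4a1 have the widest errors.

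The signalling subunits of the receptor differed in their behaviour. Cd79a (Entrez 12518, chromosome 7, 24897497 to 24901858) was at 230.8, 181.2 and 211.3 CPM in wild-type replicates 1 to 3, and at 408.9, 413.6, 444.0 and 100.4 CPM in Smchd1 null replicates 1 to 4. Smchd1 null replicates 1 to 3 thus lay above every wild-type line and replicate 4 lay below them all, and the groups overlapped. Its mean was 207.8 CPM ± 24.96 (SD, n = 3) against 341.7 CPM ± 161.6 (SD, n = 4), a log2 fold change of 0.95 (standard error 0.25, limma FDR 0.0456). Without Smchd1 null replicate 4 this rose to 1.097 (standard error 0.11, limma FDR 0.00518), and without wild-type replicate 1, which leaves batch 2 alone, the FDR was 0.0550. Cd79b (Entrez 15985, chromosome 11) was at 298.3, 262.4 and 290.8 CPM in wild-type lines and at 311.1, 389.2, 444.4 and 302.9 CPM in Smchd1 null lines. Every Smchd1 null line lay above every wild-type line, with replicate 4 closest, but the test was not passed (log2 fold change 0.42, standard error 0.12, limma FDR 0.0555). The level of Cd79a relative to Cd79b, both in RPKM, was 0.698, 0.624 and 0.656 in wild-type lines. This ratio was 1.19, 0.959 and 0.902 in Smchd1 null replicates 1 to 3 and 0.299 in replicate 4, so the subunit transcripts were least balanced in replicate 4.

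Among the other receptor proteins, Ptprc (CD45, the phosphatase that keeps LYN active) was at 118.6, 130.7 and 161.1 CPM in wild-type lines and at 184.8, 179.6, 203.4 and 429.9 CPM in Smchd1 null lines. The groups did not overlap, with Smchd1 null replicate 4 far above the rest (log2 fold change 0.46, standard error 0.18, limma FDR 0.120). Cd38, an ectoenzyme of activated and transitional B cells, was at 11.03, 83.5 and 89.1 CPM in wild-type lines and at 104.0, 52.5, 10.04 and 3.06 CPM in Smchd1 null lines. Low and high lines occurred in both groups (log2 fold change -1.17, standard error 0.74, limma FDR 0.309). Ms4a1 (CD20) had 2, 1 and 0 counts in wild-type lines and 3, 2, 83 and 6 counts in Smchd1 null lines. Only Smchd1 null replicate 3, at 12.8 CPM, lay clearly above the level of 3 counts. Cd24a was at 1545 to 1904 CPM in wild-type lines and 905.6 to 1687 CPM in Smchd1 null lines, with a log2 fold change of -0.08 (limma FDR 0.687). Of the 8 receptor and co-receptor genes, 6 were tested, 1 rose and none fell, against 5.02% higher and 6.96% lower over all genes.

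The proximal tyrosine kinases all had positive fold changes, and 2 of the 4 rose. Over all genes tested, 48.8% had a positive value and 5.02% were called higher. Syk (Entrez 20963, chromosome 13, 52582610 to 52648792) was at 177.8, 244.1 and 256.5 CPM in wild-type lines and at 338.1, 338.1, 504.7 and 293.2 CPM in Smchd1 null lines. The groups did not overlap (log2 fold change 0.56, standard error 0.14, limma FDR 0.0433). Lyn (Entrez 17096, chromosome 4, 3678068 to 3791612) was at 87.4, 65.3 and 67.4 CPM in wild-type lines and at 79.5, 122.6, 109.4 and 116.5 CPM in Smchd1 null lines. Smchd1 null replicate 1 lay below wild-type replicate 1, while the other 3 lay above all wild-type lines (log2 fold change 0.65, standard error 0.14, limma FDR 0.0252). The mean of Lyn was 73.4 CPM ± 12.2 (SD, n = 3) in the wild-type group and 107.0 CPM ± 19.1 (SD, n = 4) in the Smchd1 null group. Btk, the Tec family kinase mutated in X-linked agammaglobulinaemia, was the steadiest of the kinases, at 148.8 to 211.8 CPM in wild-type lines and 158.9 to 232.5 CPM in Smchd1 null lines (limma FDR 0.160). Blk, a Src family kinase of the B lineage, was at 11.03, 0.164 and 0.293 CPM in wild-type lines and at 2.37, 1.124, 13.6 and 44.8 CPM in Smchd1 null lines. It was highest in Smchd1 null replicate 4, and wild-type replicate 1 lay above Smchd1 null replicates 1 and 2 (log2 fold change 3.34, standard error 1.22, limma FDR 0.105).

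Of the 6 inhibitory receptors and phosphatases, all were tested, 1 rose and none fell, against 5.02% higher and 6.96% lower over all genes. Inpp5d (Entrez 16331, chromosome 1, 87620312 to 87720510), which encodes the lipid phosphatase SHIP-1, was at 224.4, 108.9 and 117.1 CPM in wild-type lines and at 171.5, 152.1, 169.6 and 224.9 CPM in Smchd1 null lines. Wild-type replicate 1 lay as high as the highest Smchd1 null line, so the call came from a fit in which that library had a weight of 0.245 (log2 fold change 0.52, standard error 0.14, limma FDR 0.0474). With voom alone the log2 fold change was 0.35 (limma FDR 0.649), and without Smchd1 null replicate 4 the FDR was 0.0627. Fcgr2b, the inhibitory Fc receptor, was at 65.9, 87.8 and 87.4 CPM in wild-type lines and at 92.1, 132.8, 92.2 and 177.9 CPM in Smchd1 null lines. Its groups did not overlap, but the closest lines nearly met and the test was not passed (log2 fold change 0.37, standard error 0.16, limma FDR 0.150). Ptpn6 (SHP-1) was at 50.5, 127.4 and 159.8 CPM in wild-type lines and at 147.9, 211.7, 211.6 and 407.2 CPM in Smchd1 null lines. Wild-type replicate 1 was the lowest line and Smchd1 null replicate 4 the highest, and the groups overlapped at replicate 1 of the latter group (log2 fold change 0.54, standard error 0.25, limma FDR 0.176).

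The 3 remaining inhibitory receptors carry tail motifs that recruit SHP-1, and each was lowest in Smchd1 null replicate 4. Cd22, a sialic acid binding lectin, was at 180.0, 325.6 and 327.1 CPM in wild-type lines and at 233.2, 294.9, 341.2 and 25.4 CPM in Smchd1 null lines. Replicates 1 to 3 of the Smchd1 null group lay within or just above the wild-type range, whereas replicate 4 was at 0.0819 of the median of the other 6 lines (limma FDR 0.526). Siglecg, the related lectin of B1 and other B cells, was at 80.0, 84.6 and 93.9 CPM in wild-type lines and at 125.6, 171.2, 250.2 and 35.2 CPM in Smchd1 null lines. As for Cd79a, replicates 1 to 3 lay above the wild-type lines and replicate 4 below them (log2 fold change 0.78, standard error 0.31, limma FDR 0.125). Without replicate 4 Siglecg differed by 0.92 (standard error 0.18, limma FDR 0.0247), and with wild-type replicates 2 and 3 summed the FDR was 0.920. Cd72 was at 217.3, 178.6 and 182.9 CPM in wild-type lines and at 205.0, 238.4, 282.3 and 69.7 CPM in Smchd1 null lines. The log2 fold change of Cd72 was 0.26 (limma FDR 0.463), and it turned to -0.12 with voom alone. Exons of genes on the opposite strand overlap Cd22, Cd72, Fcgr2b, Ptpn6, Lyn and Lcp2, and the strand setting of the counting was not given in the sources used here.

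The adaptors included the only decrease. Sh3bp2 (Entrez 24055, chromosome 5, 34525784 to 34563639), which encodes an adaptor that binds SYK, VAV and phospholipase C gamma proteins, was at 19.9, 28.9 and 26.8 CPM in wild-type lines and at 5.92, 15.9, 12.2 and 3.86 CPM in Smchd1 null lines. Every Smchd1 null line lay below every wild-type line, at a mean of 9.47 CPM ± 5.57 (SD, n = 4) against 25.2 CPM ± 4.73 (SD, n = 3). The difference was -1.45 on the log2 scale (standard error 0.31, limma FDR 0.0273), and without Smchd1 null replicate 4 it was -1.32 (limma FDR 0.0339). Blnk, the central scaffold that joins SYK to BTK and phospholipase C gamma 2, was at 160.5, 212.1 and 299.9 CPM in wild-type lines and at 146.3, 204.3, 217.6 and 40.7 CPM in Smchd1 null lines. Replicate 4 stood alone at the low end (log2 fold change -0.54, standard error 0.32, limma FDR 0.276). Grb2, which links receptors to SOS and Ras, was at 115.3, 104.8 and 109.5 CPM in wild-type lines and at 123.5, 122.7, 134.4 and 154.1 CPM in Smchd1 null lines. The groups did not overlap although the difference was small (log2 fold change 0.24, standard error 0.09, limma FDR 0.0963). Dapp1, a phosphoinositide binding adaptor, was at 19.02, 29.0 and 27.6 CPM in wild-type lines and at 31.1, 30.2, 48.3 and 69.7 CPM in Smchd1 null lines, again without overlap (log2 fold change 0.35, limma FDR 0.267). Bank1, a B cell scaffold, was at 9.93, 40.2 and 46.2 CPM in wild-type lines and at 96.1, 40.5, 65.2 and 32.8 CPM in Smchd1 null lines, with wild-type replicate 1 lowest (limma FDR 0.399). Pik3ap1, the adaptor BCAP that recruits phosphoinositide 3-kinase, ranged from 55.7 to 92.8 CPM in wild-type lines and from 56.9 to 94.4 CPM in Smchd1 null lines (limma FDR 0.731).

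None of the 4 phosphoinositide 3-kinase and Vav genes tested passed the threshold, against 5.02% higher and 6.96% lower over all genes. Pik3r1, the p85 alpha regulatory subunit, was at 24.5, 36.9 and 40.9 CPM in wild-type lines and at 58.1, 60.1, 43.2 and 44.6 CPM in Smchd1 null lines. The groups did not overlap (log2 fold change 0.49, standard error 0.15, limma FDR 0.0645). Pik3cd, the p110 delta catalytic subunit, was at 77.8 to 135.1 CPM in wild-type lines and 94.6 to 135.6 CPM in Smchd1 null lines. Vav1 varied least of all members, at 131.5 to 156.8 CPM in wild-type lines and 134.3 to 176.1 CPM in Smchd1 null lines, a 1.34-fold range over the 7 libraries. Vav2 was at 49.1 to 62.0 CPM and 39.5 to 76.1 CPM. The log2 fold changes of these 3 genes lay between -0.12 and 0.15.

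Among the effectors, Plcg2 rose and had the smallest FDR of all members. Plcg2 (Entrez 234779, chromosome 8, 117498275 to 117635142), the phospholipase that releases inositol trisphosphate and diacylglycerol, was at 333.1, 234.1 and 233.5 CPM in wild-type lines and at 334.2, 342.1, 350.8 and 488.9 CPM in Smchd1 null lines. The groups did not overlap, but replicate 1 of either group had nearly the same level (log2 fold change 0.56, standard error 0.10, limma FDR 0.0160). Its mean was 266.9 CPM ± 57.3 (SD, n = 3) against 379.0 CPM ± 73.6 (SD, n = 4), and without Smchd1 null replicate 4 the log2 fold change was 0.53 (limma FDR 0.0190). Plcg2 was also the only member called with block weights, where wild-type replicate 1 and Smchd1 null replicate 4 have variance factors of their own (limma FDR 0.0452).

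Prkcb, which encodes protein kinase C beta, differed most between lines. It had 387, 1 and 0 counts in wild-type lines and 142, 19, 259 and 1905 counts in Smchd1 null lines, or 106.7, 0.164 and 0 CPM against 21.0, 3.05, 40.0 and 253.3 CPM. The gene was thus nearly silent in wild-type replicates 2 and 3, low in Smchd1 null replicate 2 and high in wild-type replicate 1 and Smchd1 null replicate 4. The log2 fold change of 6.20 carried a standard error of 2.36 (limma FDR 0.116), depended on how a count of 0 is raised before logs are taken, and was 5.28 with voom alone (limma FDR 0.622), 1.222 with edgeR, 1.19 with DESeq2 and 2.06 without wild-type replicate 3. Blk followed the same order of lines at its extremes, with its 2 lowest values in wild-type replicates 2 and 3 and its highest in Smchd1 null replicate 4. Prkcd, the other protein kinase C gene of the list, was at 95.1 to 156.8 CPM in wild-type lines and 126.1 to 161.6 CPM in Smchd1 null lines (log2 fold change 0.04, limma FDR 0.840). Rasgrp3, a diacylglycerol dependent activator of Ras, had 4 to 6 counts in wild-type lines and 0 to 2 counts in Smchd1 null replicates 1 to 3. It was highest in replicate 4, with 27 counts, and the counts of the other lines were too few for their levels to be ordered (limma FDR 0.160).

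The remaining effectors were those that lead to NF-kappaB and NFAT. Malt1 ranged from 44.6 to 51.6 CPM in wild-type lines and from 50.9 to 91.0 CPM in Smchd1 null lines, and narrowly missed the threshold (log2 fold change 0.49, standard error 0.13, limma FDR 0.0511). Bcl10, its partner, was at 25.9 to 52.5 CPM and 34.1 to 76.5 CPM (limma FDR 0.242). Nfatc1, the calcium dependent transcription factor, was at 47.7, 48.1 and 45.7 CPM in wild-type lines and at 38.1, 56.2, 76.5 and 281.5 CPM in Smchd1 null lines. The wild-type lines were almost equal, and Smchd1 null replicate 4 was at 5.88 times the median of the other 6 lines (limma FDR 0.483). Malt1 and Nfatc1 are on chromosome 18, over which the median of 283 tested genes in Smchd1 null replicate 4 was 0.38 higher on the log2 scale than the mean of the other lines. The part of this shift in their values was not tested.

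**Figure D3:**
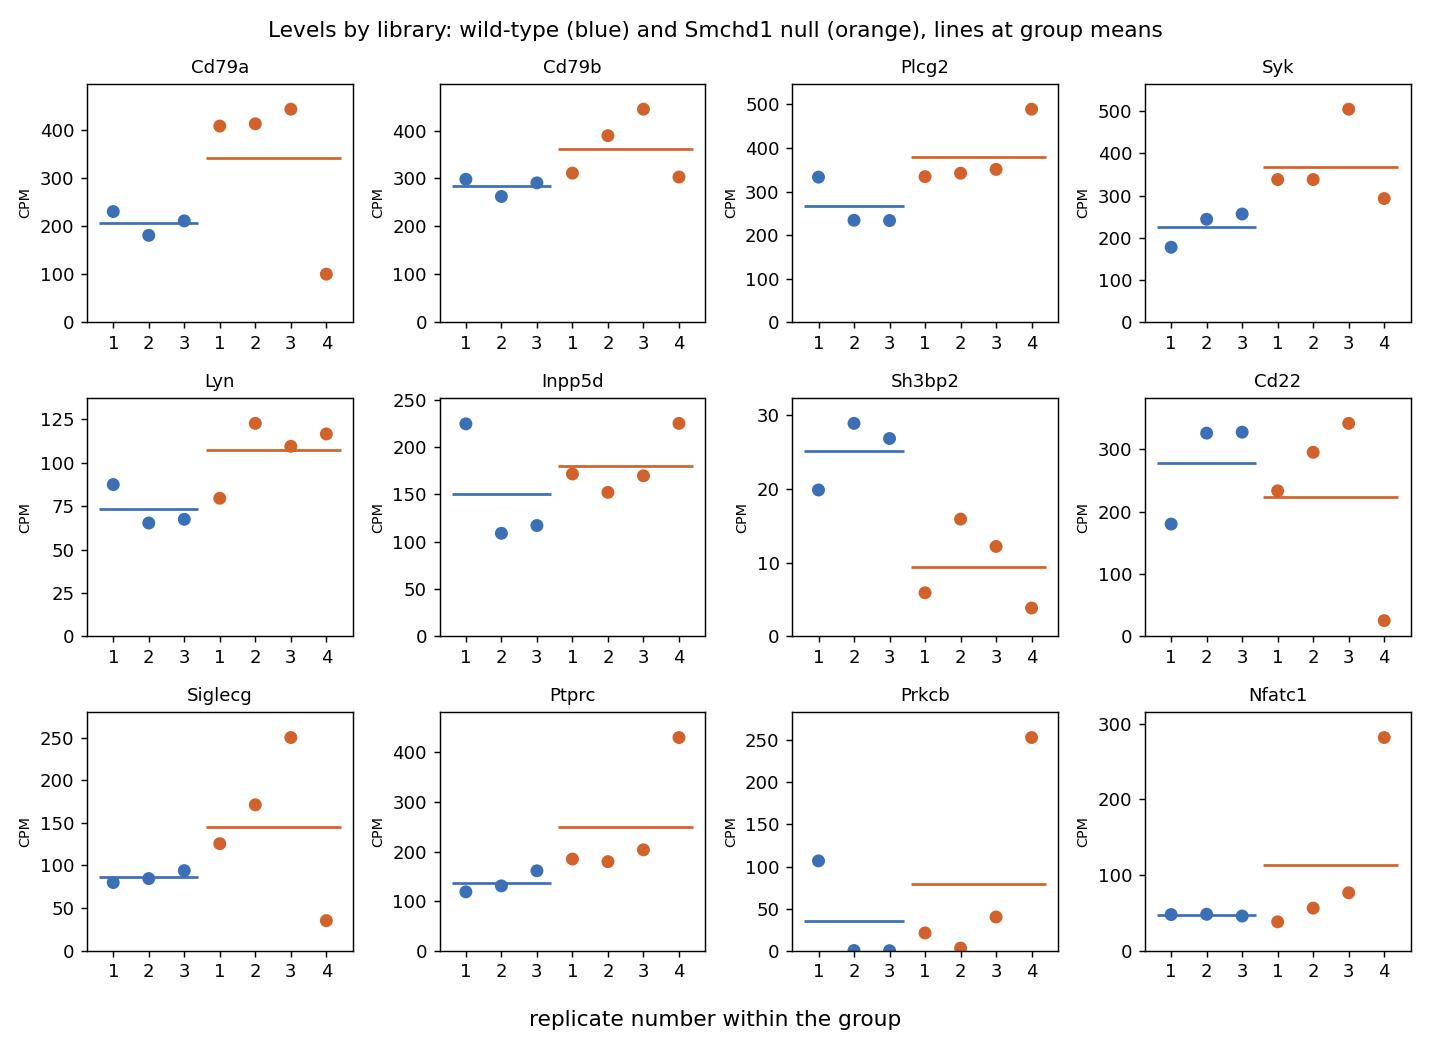
CPM of 12 members in each library, wild-type in blue and Smchd1 null in orange, with a line at each group mean and axes from 0. Smchd1 null replicate 4 lies apart in Cd79a, Cd22, Siglecg, Ptprc, Prkcb and Nfatc1, and every Smchd1 null line lies below every wild-type line in Sh3bp2.

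The members were also described line by line, with the same limit that they were chosen with earlier results of these data known. In 8 of the 33 members every Smchd1 null line lay above every wild-type line (24.2%, against 6.35% of all genes tested), namely Cd79b, Ptprc, Fcgr2b, Syk, Grb2, Dapp1, Pik3r1 and Plcg2. In 1 member, Sh3bp2, every Smchd1 null line lay below (3.03%, against 6.85%). Without Smchd1 null replicate 4 the groups did not overlap in 10 higher members (30.3%, against 9.81% of all genes) and 2 lower members (6.06%, against 11.9%). The lower members were Sh3bp2 and Rasgrp3, and the counts of Rasgrp3 were too few for its levels to be ordered. Wild-type replicate 1, the single-end library of batch 1, was the lowest of the 7 lines in 12 of the 33 members (36.4%, against 20.1% of all genes) and the highest in 1 of them (3.03%, against 25.6%). Among the 8 members that separated upwards, wild-type replicate 1 was the highest wild-type line for Cd79b, Grb2 and Plcg2. It was the lowest wild-type line for Ptprc, Fcgr2b, Syk, Dapp1 and Pik3r1. The part of its low values in these separations was not tested. Batch and line cannot be told apart for this library.

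Smchd1 null replicate 4 was the lowest or the highest line in 23 of the 33 members (69.7%, against 43.1% of all genes tested). It was lowest in 9, which were Cd79a, Cd22, Cd72, Siglecg, Cd38, Cd24a, Blnk, Sh3bp2 and Vav2. It was highest in 14, among them Ptprc, Ptpn6, Fcgr2b, Plcg2, Prkcb, Blk, Bcl10, Malt1 and Nfatc1. The members low in this line thus included 6 of the surface proteins, and those high in it included 6 of the 7 effectors. Summed over the 7 effectors the level reached 1321 CPM in replicate 4, against 520.8 to 725.0 CPM elsewhere. In the same line Pax5, the B cell commitment factor that activates Cd79a, was at 16.6 CPM against 51.3 to 85.0 CPM elsewhere, and Ebf1 at 25.5 CPM against 47.9 to 87.1 CPM. The 8 B lineage markers summed to 901.8 CPM in replicate 4 and to 1244 to 2306 CPM in the other lines. They include the members Cd79a, Cd79b, Cd22, Ms4a1 and Ptprc, so this sum is not separate from the members. Not all of the 8 were low in this line, since Ptprc was highest there. The 8 early B cell markers summed to 7.18 CPM against 123.2 to 251.2 CPM. Ighm, the mu heavy chain of the receptor, was at 2368 CPM, within the 1627 to 2471 CPM of the others, while Igkc, the kappa light chain, was at 277.8 CPM against 679.1 to 2276 CPM. Of the 5 plasma cell markers, Prdm1 was at 14.8 CPM against at most 2.48 CPM, Xbp1 was the lowest of all lines at 13.7 CPM, and the sum of 345.5 CPM lay within the 292.5 to 531.2 CPM of the others. The 7 myeloid markers summed to 0.931 CPM and the 6 T cell markers to 0.532 CPM in this line. Of the 4 endothelial markers, Pecam1, which B cells also express, was at 219.0 CPM against 44.1 to 94.2 CPM elsewhere, Tek was at 3.06 CPM against at most 0.161 CPM, Cdh5 was at 1.33 CPM against 1.29 to 3.58 CPM, and Kdr was at 0. For those of these genes that are not members, their part in the values of the members was not tested. In bulk RNA fewer cells of a type and less RNA per cell cannot be told apart.

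**Figure D4:**
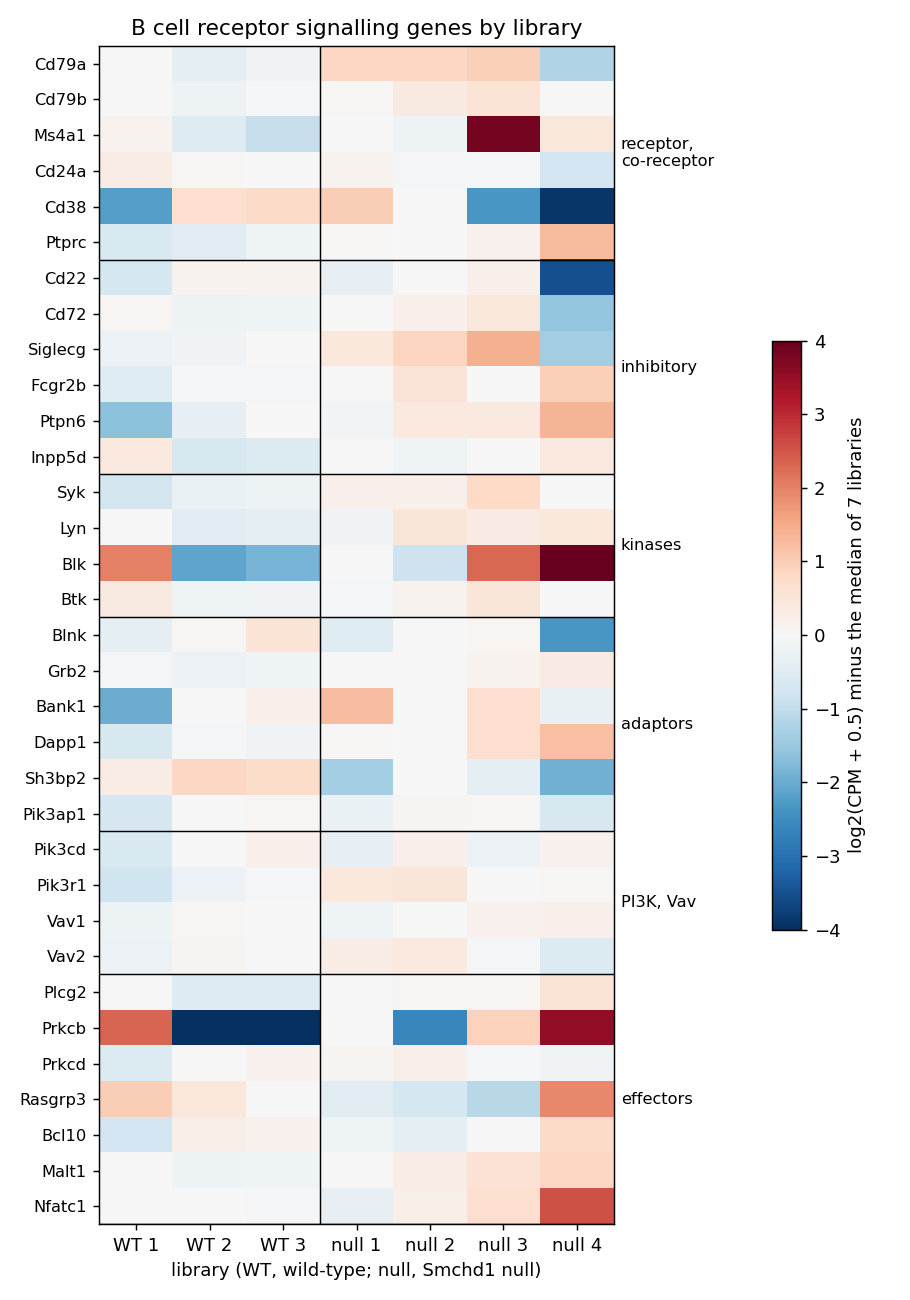
Log2(CPM + 0.5) of each tested member minus its median over the 7 libraries, red above and blue below the median, grouped by role with wild-type lines at the left of the vertical line. Smchd1 null replicate 4 is the lowest line in 9 members and the highest in 14, low in Cd22, Cd38 and Blnk and high in Blk, Prkcb and Nfatc1.

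The wider pathway was read from a list of 88 further genes, all found in the tables, of which 80 were tested. Of these, 4 rose and 8 fell in the Smchd1 null group, against the same 5.02% and 6.96% of all genes, and their median log2 fold change was 0.02. As for the members, voom alone and edgeR called 0 of them. Lck, the Src family kinase of T cells, fell from 60.9, 17.6 and 17.6 CPM to 7.997, 0.964, 2.78 and 11.4 CPM (log2 fold change -2.70, standard error 0.61, limma FDR 0.0312). Nras, a small GTPase of the Ras family, fell from 359.8, 223.4 and 220.3 CPM to 121.4, 126.2, 143.6 and 106.8 CPM (log2 fold change -0.84, standard error 0.11, limma FDR 0.00942). The groups did not overlap in either gene. Nfkbia, the inhibitor of NF-kappaB, fell from 40.8, 52.2 and 58.9 CPM to 22.8, 24.9, 50.4 and 39.9 CPM (log2 fold change -0.90, standard error 0.22, limma FDR 0.0373), with Smchd1 null replicate 3 within the wild-type range.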

How the data were processed

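RNA from 7 lines was sequenced from TruSeq v2 libraries. The authors aligned the reads to mm10 and summarised them with featureCounts, and the deposited values are raw counts per gene with the gene length used. How the authors treated reads matching several places, and the strand setting, are not given in the sources used here. Total counts ran from 3626853 to 7519549. Genes at 0.5 CPM or more in at least 3 libraries were kept (12303 of 27179). Counts were normalised by TMM and fitted with voomWithQualityWeights in limma 3.58.1 (R 4.3.3), with group as the only term, over all 7 libraries and Benjamini-Hochberg adjustment. This is the FDR, with a threshold of 0.05. edgeR 4.0.16, DESeq2 1.42.0 and other weights and filters were alternatives. The scripts were tested on simulated data. The members, the pathway list and the marker lists were chosen with earlier results of these data known. Values for every library are given for members that passed the test, did not overlap between groups or had a library over 3-fold from the median of the others (24 members), and ranges for the other 9. In the pathway list, the rule named the 6 called genes with the largest fold changes, and some of these and of the marker genes are not reported here. Coordinates and promoters are on GRCm38. Counting intervals and floors cover counting error only.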

Additional observations from a re-analysis of the deposited data

Results flagged for a closer look

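Among the 33 members tested, the Smchd1 null group of 4 lines was screened for a line standing apart on normalised log2 CPM by the ratio of its gap to the range of the group, and 4 members passed the 95% critical value, where 1.65 would be passed at a rate of 1 in 20. All 4 concerned Smchd1 null replicate 4. It was at 100.4 CPM for Cd79a (the others 408.9 to 444.0 CPM) and at 25.4 CPM for Cd22 (next line 233.2 CPM), the lowest of its group. It was at 429.9 CPM for Ptprc (next line 203.4 CPM) and at 488.9 CPM for Plcg2 (next line 350.8 CPM), the highest of its group. The 4 members share this library, so these are not independent. The wild-type group of 3 was not screened.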

How the results depend on the processing

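The 6 called members kept their direction under every alternative, from 0.52 to 1.118 for Cd79a, 0.07 to 0.61 for Inpp5d, 0.44 to 0.83 for Syk, 0.50 to 0.77 for Lyn, 0.35 to 0.61 for Plcg2 and -1.77 to -0.98 for Sh3bp2 (log2), but the counts of calls moved. From 5 members higher, 1 lower, 1474 genes in all and 4 higher and 8 lower pathway genes, voom alone and edgeR each called 0, 0, 12, 0 and 0. DESeq2 called 0, 0, 382, 2 and 2, block weights 1, 0, 484, 1 and 2, and wild-type replicates 2 and 3 summed 0, 0, 1, 0 and 0. Removing the outlying samples gave 2 and 0 members, 507 genes and 1 higher pathway gene, no filter gave 3 higher members, and an FDR of 0.1 gave 9 higher members, 2771 genes and 9 and 14 pathway genes. With the replicate block, 2 members (Cd79a and Siglecg, limma FDR 0.0337 and 0.0366) were higher and 0 lower, the other 5 calls being lost (FDR 0.0634 to 0.186), with 225 genes and 0 and 1 pathway genes, and the log2 fold changes of Pik3ap1, Pik3cd and Vav1 turned to 0.087, 0.049 and 0.015. The deviations of same-numbered lines from their group means had correlations of -0.145, 0.228 and -0.185. No differently numbered lines were set beside them, so these values cannot settle whether the numbers mark a pairing. Leaving out 1 library gave 0 to 5 members higher, 0 to 1 lower, 1 to 1632 genes, and 0 to 3 and 0 to 8 pathway genes. No member was called without wild-type replicate 2 or without wild-type replicate 3, where 1 gene in all was called in each fit.

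Small fold changes turned in sign. Voom alone gave -0.12 for Cd72, 0.084 for Pik3cd, 0.12 for Vav1 and 0.14 for Bcl10. Block weights gave 0.017 and no filter 0.011 for Vav1. For Pik3ap1, Pik3cd, Vav1 and Bcl10, edgeR gave 0.0043, 0.0705, 0.12 and 0.17, DESeq2 0.0039, 0.0706, 0.12 and 0.17, and the summed libraries 0.21, 0.19, 0.12 and 0.0094. With 1 library left out, Cd38 ran from -2.41 to 0.068, Cd22 from -0.62 to 0.027, Pik3ap1 from -0.17 to 0.27, Pik3cd from -0.27 to 0.27, Vav1 from -0.065 to 0.16, Vav2 from -0.079 to 0.34, Prkcd from -0.063 to 0.40 and Bcl10 from -0.43 to 0.11. The cause was not tested. A count of 3 limits what can be said of Ms4a1, Rasgrp3 and the 4 members not tested.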
